A study of Mus musculus with 62 samples.

Results

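The data described here are the ribosome footprints of the heart of Rpl3l knockout mice. They comprise 8 Ribo-seq libraries of the 62 samples of the series, 4 from wild-type (WT) hearts and 4 from Rpl3l-/- hearts, taken by the genotype and assay in their labels. Each transcript stands on 2 identical lines of the deposited table of counts, and 1 line per transcript was kept, with the transcript of the highest mean footprint count standing for its gene. This left 10476 genes, of which 5381 had a mean of at least 10 footprints per library and were tested. RNA-seq libraries of 4 WT and 4 Rpl3l-/- hearts gave the mRNA level of the same transcripts.

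RPL3L is the sister protein of ribosomal protein RPL3 in heart and skeletal muscle, where it can take its place in the large ribosomal subunit, close to the peptidyl transferase center. Ribo-seq sequences the short stretches of mRNA that ribosomes shield from nuclease. The number of footprints of a gene therefore depends on how much of its mRNA is present, how often ribosomes initiate on it and how long each ribosome stays on it, so that RNA-seq of the same tissue is needed beside it. A total per gene carries no position, and occupancy at single codons was not measured here.

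All mice were males of the C57BL/6J strain at 10 weeks of age. The Rpl3l-/- mice carry a germline deletion of exon 2 with a frameshift, made with CRISPR-Cas9, and the WT mice differ from them in that allele only as far as the labels and the methods tell. Frozen whole hearts were lysed with cycloheximide, an inhibitor of elongation, in the buffer. RNA-seq was made from polyadenylated RNA. Because each library is a whole organ, fewer cells of a type and less RNA per cell cannot be told apart. The designed parts of the crRNAs that were used for Rpl3l are shown because they define the mutant, with the 12 bases next to the PAM in capitals, and their genome positions were not determined here:
crRNA 1: ttgctccaAGAGCATAGCCC
crRNA 2: actacctaCGGCCAGTGCCA

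Ribo-seq totals over the 10476 genes ranged from 734629 to 1447115 footprints per library and RNA-seq totals from 1431900 to 9150044 reads, and all values below are CPM (counts scaled to a common library total) after TMM scaling. All transcripts that matched the annotation lay on the plus strand, so that minus-strand genes such as Rpl3 are not analysed here. Summed CPM of 15 airway and lung markers, for instance Bpifa1 and Scgb3a1, differed widely between libraries of the same genotype. In Ribo-seq it was 24.7, 2767, 54.1 and 782 CPM in the WT hearts and 6290, 8354, 15.5 and 42.0 CPM in the Rpl3l-/- hearts. In RNA-seq it was 12.7, 1422, 23.9 and 361 CPM in the WT hearts and 3419, 8.01, 4604 and 16.4 CPM in the Rpl3l-/- hearts, so that 4 Ribo-seq and 4 RNA-seq libraries held such transcripts at 361 CPM or more and the others at 54.1 CPM or less. Fat markers were highest in the same pair of Rpl3l-/- Ribo-seq libraries (5362 and 7026 CPM against 2944 to 4533 in the other 6). The count of calls, the named genes past the threshold and the class values are therefore also given without the libraries with airway transcripts (the airway libraries), a comparison added after the data were seen.

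Few genes passed the threshold in footprints. Of the 5381 genes tested, 3 rose and 3 fell in the Rpl3l-/- heart at an adjusted p under 0.05 by edgeR (0.0558% of genes tested each, 0.112% in all). These were Rpl3l, Lmtk3 and Catspere2, which fell, and Cebpb, Ift46 and Larp1b, which rose. The number depended on the fit, with 79 genes by DESeq2 (52 higher and 27 lower), 22 among genes with a mean of at least 50 footprints (13 and 9) and 17 with library totals in place of TMM (4 and 13). At an unadjusted p under 0.05, 468 genes (8.70%) were higher and 429 (7.97%) lower, and in 286 genes (5.31%) every Rpl3l-/- heart was above every WT heart, with 268 (4.98%) the other way round. In mRNA, 1 of 6301 genes passed the threshold (0.0159%), and 138 had an unadjusted p under 0.05 (2.19%), 87 higher (1.38%) and 51 lower (0.809%). The groups were apart in mRNA in 50 genes upward (0.794%) and 40 downward (0.635%). The difference between the footprint and the mRNA change passed for 0 of 5273 genes (0.00%) by edgeR's quasi-likelihood test and for 0 by DESeq2, with 340 genes (6.45%) at an unadjusted p under 0.05, 156 higher (2.96%) and 184 lower (3.49%). In simulated data of the same depth, genes changed by 1 on the log2 scale were recovered in 82.9% of 193 cases in footprints, 64.2% of 193 in mRNA and 43.8% of 194 in footprints per mRNA. Of genes changed by 0.5, 1.53% of 196, 3.55% of 197 and 0 of 193 were recovered.

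Rpl3l, the deleted gene (chromosome 17, 24727820 to 24736143, plus strand, GRCm38), had 619, 600.1, 589 and 581 CPM in the WT hearts and 25.9, 13.0, 26.8 and 29.8 CPM in the Rpl3l-/- hearts in footprints. The groups lay far apart, with means of 597 ± 16.6 and 23.9 ± 7.44 CPM (SD, n = 4 each) and a log2 fold change of -4.68 (standard error 0.17, edgeR, adjusted p = 1.7e-09). Its mRNA fell as well, with 1019, 1343, 923 and 1256 CPM in the WT hearts and 59.8, 98.7, 70.1 and 68.2 CPM in the Rpl3l-/- hearts and a log2 fold change of -3.93 (edgeR, adjusted p = 3.0e-09). Footprints per mRNA were lower by a further -0.75 on the log2 scale, which did not pass the threshold (edgeR, adjusted p = 0.68). Rpl3l was past the threshold in footprints and in mRNA in every fit that was run on 1 transcript per gene.

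Cebpb encodes C/EBPβ, a leucine zipper transcription factor of inflammatory and stress responses, on an mRNA of a single exon (chromosome 2, 167688915 to 167690418). Its footprints were 193, 147, 164 and 171 CPM in the WT hearts and 422, 363, 301 and 398 CPM in the Rpl3l-/- hearts. All Rpl3l-/- hearts lay above all WT hearts, and footprints rose 2.20-fold (log2 fold change 1.13, 95% interval 0.88 to 1.39, edgeR, adjusted p = 7.0e-04). Its mRNA had 126, 116, 84.8 and 112 CPM in the WT hearts and 174, 174, 183 and 140.0 CPM in the Rpl3l-/- hearts, a difference of 0.62 on the log2 scale that did not pass the threshold (edgeR, adjusted p = 0.927). The part of the footprint change beyond mRNA was 0.51 (edgeR, adjusted p = 0.692).

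Ift46 encodes a subunit of the particle that carries cargo along cilia, and Larp1b a member of the La-related family of RNA-binding proteins. Ift46 footprints were 38.8, 43.6, 34.5 and 41.9 CPM in the WT hearts and 91.2, 73.4, 70.6 and 63.6 CPM in the Rpl3l-/- hearts, a rise of 1.89-fold (log2 fold change 0.92, 95% interval 0.61 to 1.23, edgeR, adjusted p = 0.0276). Larp1b footprints were 278, 209, 179 and 264 CPM in the WT hearts and 525, 331, 526 and 477 CPM in the Rpl3l-/- hearts, a rise of 1.99-fold (log2 fold change 0.99, 95% interval 0.64 to 1.34, edgeR, adjusted p = 0.029). The groups of both genes were apart in footprints and overlapped in mRNA, where the log2 differences were 0.01 for Ift46 and 0.12 for Larp1b. Footprints per mRNA were higher by 0.90 for Ift46 and 0.87 for Larp1b, which did not pass the threshold (edgeR, adjusted p = 0.66 for each).

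Lmtk3 encodes a membrane-bound kinase best known from brain, and Catspere2 a subunit of the sperm calcium channel CatSper. Lmtk3 footprints were 37.4, 56.0, 53.1 and 48.9 CPM in the WT hearts and 21.4, 13.0, 8.48 and 13.5 CPM in the Rpl3l-/- hearts (log2 fold change -1.75, 95% interval -2.28 to -1.22, edgeR, adjusted p = 0.0126). Catspere2 footprints were 38.8, 64.0, 53.1 and 79.2 CPM in the WT hearts and 19.1, 15.8, 22.6 and 23.0 CPM in the Rpl3l-/- hearts (log2 fold change -1.53, 95% interval -2.06 to -1.01, edgeR, adjusted p = 0.0276). Neither transcript was found in RNA-seq at a level that could be tested. The 8 RNA-seq libraries held 0 to 4 reads of Lmtk3 and 0 to 5 reads of Catspere2 each. Reads with several matches were kept by the authors, and whether these footprints belong to the named transcripts or to other RNA that overlaps them or shares their sequence was not tested.

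**Figure D1:**
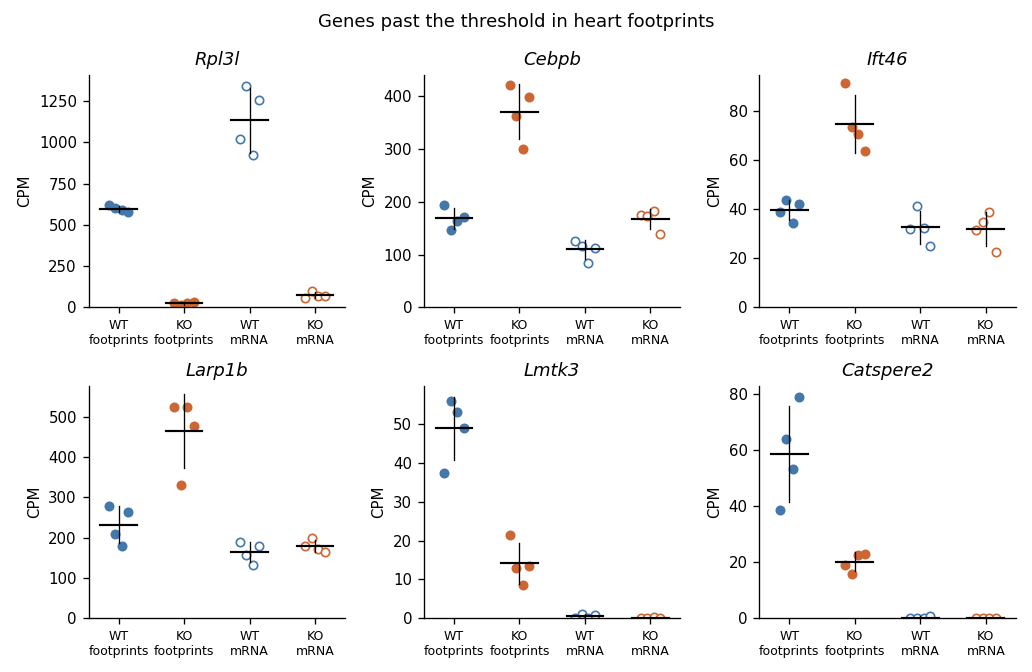
CPM (TMM scaled) of the 6 genes past the threshold in heart footprints, in each WT (blue) and Rpl3l-/- (orange) library of Ribo-seq (filled) and RNA-seq (open), with the mean (bar) and SD (line, n = 4). Rpl3l is low in all Rpl3l-/- libraries of both assays, Cebpb, Ift46 and Larp1b are higher in Rpl3l-/- footprints, and Lmtk3 and Catspere2 have footprints but almost no RNA-seq reads.

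Without the 4 Ribo-seq libraries with airway transcripts, which left 2 hearts per genotype, Rpl3l alone passed, 546 of 5322 genes (10.3%) had an unadjusted p under 0.05, and Cebpb had an adjusted p of 0.173 by edgeR. The log2 fold changes were then 0.96 for Cebpb, 1.12 for Larp1b, 0.86 for Ift46, -1.999 for Lmtk3 and -0.99 for Catspere2, of which that of Catspere2 was smaller by over 1.5 times. Without WT replicate 2 or WT replicate 4, Rpl3l and Cebpb passed.

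The 6 genes with the next smallest p-values stayed short of the threshold, with adjusted p-values of 0.0506 to 0.0527 by edgeR, and in all of them the groups were apart. Paip2, an inhibitor of poly(A)-binding protein and so of translation, had 374, 358, 409 and 407 CPM in the WT hearts and 292, 240.5, 260.0 and 286 CPM in the Rpl3l-/- hearts, a log2 difference of -0.52 against -0.05 in mRNA. Pkia, which inhibits protein kinase A, had 137, 145, 151 and 136 CPM in the WT hearts and 82.2, 91.0, 98.9 and 106 CPM in the Rpl3l-/- hearts, a difference of -0.60 against -0.20 in mRNA. Footprints per mRNA differed by -0.47 for Paip2 and -0.40 for Pkia, and neither passed the threshold (edgeR, adjusted p = 0.66 and 0.84).

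Cish, a feedback inhibitor of cytokine signaling, had 244, 156, 139.8 and 141 CPM in the WT hearts and 318, 357, 346 and 278 CPM in the Rpl3l-/- hearts, a log2 difference of 0.92 in footprints beside 0.70 in mRNA. Tysnd1, a protease of peroxisomes, had 81.6, 88.9, 69.0 and 75.7 CPM in the WT hearts and 114, 122, 136 and 118 CPM in the Rpl3l-/- hearts, a log2 difference of 0.63 beside 0.02 in mRNA. Acot4, a peroxisomal thioesterase, had 110.3, 128, 96.0 and 94.3 CPM in the WT hearts and 149.8, 179, 227 and 177 CPM in the Rpl3l-/- hearts, a difference of 0.77. Trim17, a ubiquitin ligase, had 3.34, 5.33, 3.73 and 6.98 CPM in the WT hearts and 27.0, 12.1, 14.1 and 20.3 CPM in the Rpl3l-/- hearts, a difference of 1.95. These were 4 to 6 footprints per WT library and 10 to 24 per Rpl3l-/- library. Trim17 thus reached the mean of 10 footprints only through the Rpl3l-/- hearts, so that the filter favored a rise. Neither Acot4 nor Trim17 was tested in mRNA, with 2 to 20 and 0 to 5 RNA-seq reads per library. With the trend of each library with coding GC removed, a fit described with base composition, the differences were -0.23 for Paip2, -0.37 for Pkia, 0.72 for Cish, 0.19 for Tysnd1, 0.60 for Acot4 and 1.81 for Trim17.

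Footprint and mRNA differences were weakly related across genes. Over the 5273 genes tested in both assays, the footprint and the mRNA log2 fold change had a Spearman correlation of 0.125 and a Pearson correlation of 0.40, or 0.38 without Rpl3l. Genes within an assay share their libraries and are not independent, so these values are a description. The median size of the log2 fold change was 0.168 in footprints and 0.104 in mRNA, and the median standard errors were 0.16 and 0.20. Of 864 genes with an unadjusted p under 0.05 in footprints, 517 had the same sign in mRNA (59.8%, against 54.3% of all genes tested in both), 27 had an unadjusted p under 0.05 in mRNA with the same sign and 2 with the opposite sign. The genes at upper right in the plot of the pair of changes, with mRNA and footprint differences above 1.5 on the log2 scale, include the airway genes Bpifb1 (2.83 in footprints and 2.61 in mRNA) and Scgb3a1 (2.70 and 2.04), which did not pass the threshold.

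**Figure D2:**
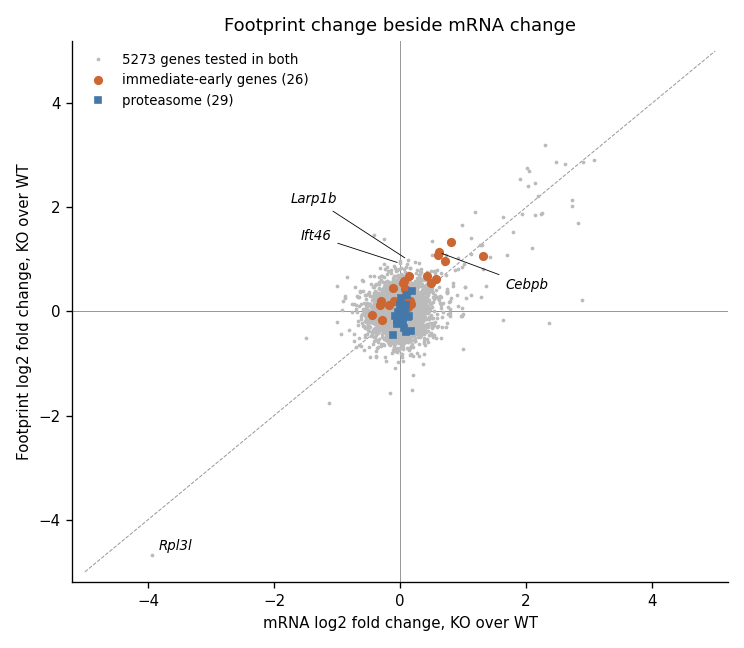
Footprint log2 fold change (vertical) against mRNA log2 fold change (horizontal), Rpl3l-/- over WT, for the 5273 genes tested in both assays (gray), with immediate-early genes (orange circles) and proteasome genes (blue squares). The dashed line marks equal change. Rpl3l lies alone at lower left, and the immediate-early genes lie mostly above the horizontal line, with a median of 0.42 beside 0.10 in mRNA.

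The footprint difference was ordered by the base composition of the coding sequence, and the mRNA difference was not. Genes with a complete coding sequence (5356) were split by their GC share into 5 quintiles. The median footprint log2 fold changes from the lowest to the highest quintile were -0.22, -0.08, 0.02, 0.10 and 0.22, where those of mRNA stayed between -0.02 and 0.01. In the lowest quintile (35.6% to 47.5% GC, 1072 genes), 955 genes were lower in the Rpl3l-/- heart, 289 of them and 4 of the others at an unadjusted p under 0.05. In the highest quintile (58.0% to 75.2% GC, 1071 genes), 909 genes were higher, and 271 higher and 12 lower genes had an unadjusted p under 0.05. These shares stand beside 8.70% higher and 7.97% lower genes over all genes tested.

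Every library took its side in this order. Relative to the WT mean, the medians of the lowest quintile were -0.25 to -0.19 in the 4 Rpl3l-/- libraries and -0.03 to 0.06 in the 4 WT libraries. The medians of the highest quintile were 0.20 to 0.23 in the Rpl3l-/- and -0.05 to 0.03 in the WT libraries, so that the groups did not overlap at either end. In RNA-seq the groups overlapped in both quintiles. Across genes, the Spearman correlation of the footprint log2 fold change was 0.60 with the GC share of the coding sequence, 0.53 with that of the wobble position of codons and 0.00 with the number of codons (n = 5356), and with mRNA the first was 0.03 (n = 5248). Genes share libraries and neighboring composition, and no p is given. Without the 4 libraries with airway transcripts, the medians of the lowest and the highest quintile were -0.23 and 0.24.

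Proline and alanine codons, of which the study examined the occupancy, followed the same order. By the share of Pro and Ala codons, quintiles had median footprint log2 fold changes of -0.14, -0.06, 0.00, 0.07 and 0.16, with library medians of -0.14 to -0.11 in Rpl3l-/- and -0.02 to 0.03 in WT hearts at the low end and 0.14 to 0.16 and -0.03 to 0.02 at the high end. By Lys and Asn codons they had 0.16, 0.07, 0.00, -0.07 and -0.12. Pro and Ala codons begin with CC and GC, so that both shares are tied to GC (Spearman 0.58 and -0.59 with the GC share of the coding sequence). Within each quintile of wobble-position GC, which is fixed mainly by the choice among synonymous codons, medians were higher the more Pro and Ala codons a gene had. They went from -0.28 to -0.03 in the lowest and from 0.08 to 0.27 in the highest quintile of wobble-position GC. With the trend of each library with total coding GC removed, the medians of the lowest and the highest quintile by Pro and Ala codons were -0.021 and 0.018. The quintiles by coding length had medians of 0.00 to 0.01 and those by mean footprint level of -0.01 to 0.02.

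**Figure D3:**
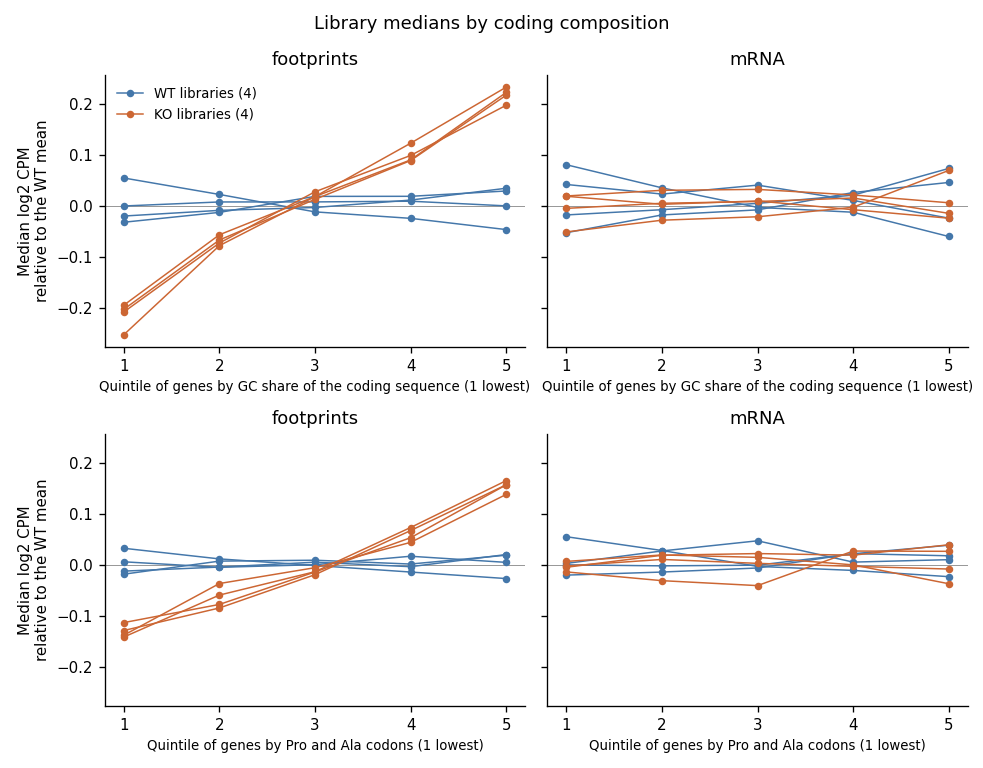
Median log2 CPM relative to the WT mean (vertical) in each WT (blue) and Rpl3l-/- (orange) library, for quintiles of genes ordered by the GC share of the coding sequence (upper panels) and by the share of Pro and Ala codons (lower panels), in footprints (left) and mRNA (right). In footprints the 4 Rpl3l-/- lines climb from between -0.25 and -0.19 to between 0.20 and 0.23 by GC. The WT lines are centered near 0 by the subtraction of the WT mean, and in mRNA the Rpl3l-/- lines stay near 0 as well.

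Correlations were also taken codon by codon, and synonymous choice was not separated from the GC share of the coding sequence. Among 29 codons that end in G or C and have synonyms, 26 had a positive Spearman correlation between their share in the coding sequence and the footprint log2 fold change, and 27 of 30 codons that end in A or T had a negative one (n = 5356 genes). The most positive were CCC (Pro, 0.46), GCC (Ala, 0.45), GGC (Gly, 0.40) and CGC (Arg, 0.38), and the most negative AAA (Lys, -0.47), GAA (Glu, -0.47), AGA (Arg, -0.41) and AAT (Asn, -0.40). Codons of one amino acid differed. Lysine's AAG had -0.05 where AAA had -0.47, proline's CCA had 0.00 where CCC had 0.46, and for 16 of 18 amino acids with synonyms every codon ending in G or C lay above every codon ending in A or T. As whole amino acids, Pro (0.30), Ala (0.27) and Gly (0.20) were highest and Lys (-0.32), Asn (-0.27) and Ile (-0.21) lowest. With the mRNA log2 fold change, no codon went beyond 0.064 in size.

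**Figure D4:**
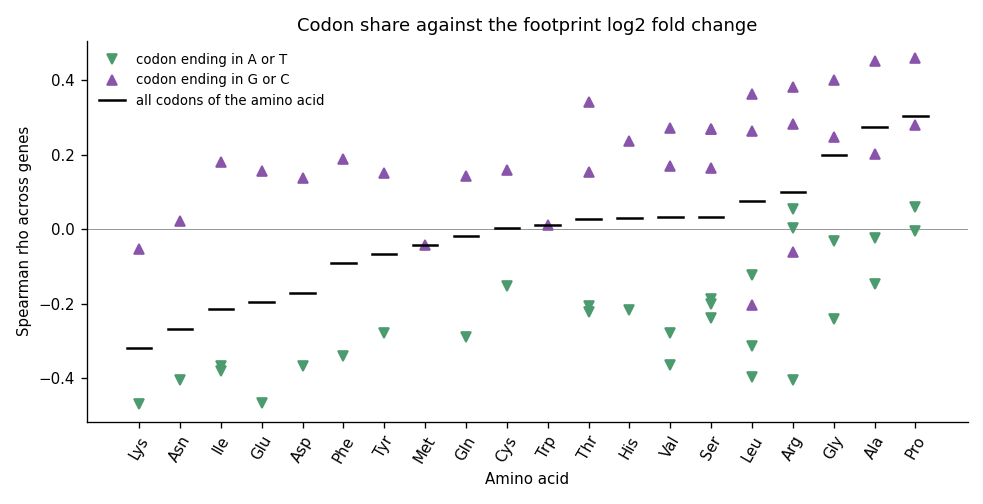
Spearman correlation across 5356 genes (vertical) between the share of each codon and the footprint log2 fold change, by amino acid (horizontal), for codons ending in G or C (purple, upward triangles) and in A or T (green, downward triangles), with the share of the whole amino acid as a bar. Within most amino acids the purple symbols lie above the green ones, and the bars run from -0.32 for Lys to 0.30 for Pro.

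What these codons look like in genes is shown by stretches of 10 codons, about as long as a footprint, taken where the set of 4 is densest. The first 3 are from genes that were higher in Rpl3l-/- footprints, with CCC, GCC, GGC and CGC in capitals, and the last 2 from proteasome genes that were lower, with AAA, GAA, AGA and AAT in capitals. All lie on the plus strand of GRCm38 and were read from GENCODE M21 transcripts:
Cebpb, exon 1, codons 41 to 50, chr2:167689142-167689171: GCCCGCGCCgcgccgCGCGCCCCCGCCGCC
Jund, exon 1, codons 167 to 176, chr8:70699556-70699585: CCCgcgCCCGCCgacctgGCCGCCaccCCC
Klf2, exon 2, codons 197 to 206, chr8:72319942-72319971: CCCGGCCCCagcttcGGCggtCCCGGCCCC
Psma3, exon 3, codons 56 to 65, chr12:70983380-70983409: tctAAActttatGAAGAAggctccAATAAA
Psmd14, exon 9, codons 204 to 213, chr2:61783872-61783901: actattAATtaccggAAAAATGAActgGAA

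The first set made up 25.7% of the codons of Cebpb, 16.7% of those of Jund and 22.3% of those of Klf2, beside a median of 7.45% over genes. The second set made up 16.5% of the codons of Psma3 and 14.8% of those of Psmd14, beside a median of 7.33%. Both sets were picked by their correlation with this same footprint difference, and the genes by its direction. The shares therefore illustrate the order and are no separate evidence of it. The genotypes of these Ribo-seq libraries also carry any difference in how the 2 groups of libraries were prepared and sequenced, and such a difference and the genotype cannot be told apart. For this reason the trend of each library with coding GC was removed in a further fit, chosen after the data were seen. It left 356 of 5356 genes at an unadjusted p under 0.05 (6.65%), with Rpl3l, Lmtk3 and Ift46 past the threshold. Cebpb was then higher by 0.58 on the log2 scale (edgeR, adjusted p = 0.102), Larp1b by 0.86 (0.102 as well) and Catspere2 differed by -1.24 (0.122). Class values are given beside those of this fit and those without the airway libraries. Over all genes tested, 8.70% were higher and 7.97% lower at an unadjusted p under 0.05, 3.25% and 3.40% with the GC trend removed, and 5.75% and 4.51% without the airway libraries.

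Immediate-early and other fast-responding genes, which encode transcription factors and phosphatases of short-lived mRNAs, had the highest median among the classes in the plot of classes. Of 55 genes listed, 30 were in the table and 26 were tested. Footprints were higher in 24 and lower in 2, with 12 higher and 0 lower at an unadjusted p under 0.05 (8.70% and 7.97% over all genes) and the groups apart in 6, all upward (5.31%). Cebpb was past the threshold. The median log2 fold change was 0.42 in footprints and 0.10 in mRNA, and 0.30 in footprints per mRNA, beside 0.01, 0.00 and 0.00 over all genes tested. The summed level was 2140 to 2599 CPM in WT and 3291 to 3707 CPM in Rpl3l-/- footprints, and 1472 to 1765 and 1775 to 2043 CPM in RNA-seq, without overlap in either assay.

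Within this class, the nuclear receptor gene Nr4a1 (1.09, mRNA 0.60), the period gene Per1 (1.34, mRNA 0.80) and the growth arrest gene Gadd45b (0.96, mRNA 0.72) were higher in both assays on the log2 scale, at unadjusted p in footprints. Jund, a subunit of AP-1, had 181, 194, 148 and 177 CPM in the WT hearts and 265, 231, 244 and 278 CPM in the Rpl3l-/- hearts, a difference of 0.54 beside 0.05 in mRNA. Klf2, a zinc-finger factor of endothelium, had 335, 204, 241 and 253 CPM in the WT hearts and 494, 393, 429.5 and 339.9 CPM in the Rpl3l-/- hearts, a difference of 0.68 beside 0.13. Mcl1, a survival protein with rapid turnover, had 446, 428, 400.0 and 390.0 CPM in the WT hearts and 483, 534, 632 and 547 CPM in the Rpl3l-/- hearts, a difference of 0.40 beside 0.10. In these 3 genes the groups were apart in footprints and the mRNA difference was near 0. Fos (0.20), Myc (0.14) and Egr1 (-0.08) did not reach an unadjusted p of 0.05, and Sgk1, a kinase gene, overlapped between the groups (0.16, standard error 0.19).

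The class is rich in GC, with a median of 59.7% in the coding sequence and 16.3% Pro and Ala codons, against 53.0% and 12.6% over all genes tested. With the coding GC trend removed its median was 0.15, and 4 genes were higher and 0 lower at an unadjusted p under 0.05 (3.25% and 3.40% over all genes). Without the libraries with airway transcripts its median was 0.37 over 24 genes, with 10 higher and 0 lower (5.75% and 4.51%).

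Genes of the translation machinery were spread around 0 or below. Of 34 tested translation factors, 11 were higher and 23 lower, with 1 higher and 10 lower at an unadjusted p under 0.05 (8.70% and 7.97% over all genes) and a median of -0.07 in footprints and 0.01 in mRNA. Eif1, which guards start codon choice, had 404, 461, 632 and 463 CPM in the WT hearts and 293, 286, 353 and 383 CPM in the Rpl3l-/- hearts, a log2 difference of -0.58 beside 0.01 in mRNA, with the groups apart. The initiation factors Eif1ax (-0.37), Eif5b (-0.36), Eif5 (-0.33), Eif2s1 (-0.30) and the helicase gene Eif4a2 (-0.31) were lower at an unadjusted p under 0.05. The elongation factor Eef2 (0.24, standard error 0.26) and the scaffold Eif4g1 (0.13) overlapped between the groups. The median was -0.05 with the GC trend removed, with 0 genes higher and 2 lower, and -0.12 without the airway libraries, with 1 higher and 4 lower. Leaving out single replicates gave -0.16 to -0.04, with the lowest value without Rpl3l-/- replicate 4.

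The 46 cytosolic ribosomal proteins tested, of 85 listed, had a median of -0.04 in footprints and 0.08 in mRNA, with 0 higher and 4 lower at an unadjusted p under 0.05 (8.70% and 7.97% over all genes). Their footprints varied more between hearts than those of any other class shown in the plot of classes, with library medians of -0.25 to 0.52 in WT and -0.56 to 0.38 in Rpl3l-/- hearts. Rpl4 was 961, 687, 514 and 573 CPM in the WT hearts and 427, 704, 832 and 508 CPM in the Rpl3l-/- hearts and Rpl24 852, 689.9, 595 and 573 CPM in the WT hearts and 549.6, 709, 913 and 624 CPM in the Rpl3l-/- hearts, with the genotypes interleaved. Rpl22l1, a paralog of Rpl22, had 112, 76.5, 55.9 and 75.7 CPM in the WT hearts and 38.3, 46.4, 52.3 and 48.8 CPM in the Rpl3l-/- hearts, a difference of -0.81 with the groups apart, beside 0.01 in mRNA. Rpl29 (-0.57) was lower with overlap. Ribosomal protein genes have many processed copies in the genome, and reads with several matches were kept by the authors, so that their counts are uncertain. For cytosolic ribosomal proteins, the median was -0.08 with the GC trend removed (0 higher and 3 lower), -0.09 without the airway libraries (0 higher and 3 lower) and -0.23 to 0.17 with single replicates left out. The sign turned without WT replicate 1 (0.17), Rpl3l-/- replicate 1 (0.11) or Rpl3l-/- replicate 4 (0.05).

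Mitochondrial ribosomal proteins (50 tested) had a median of 0.01 in both assays, with 5 higher and 2 lower at an unadjusted p under 0.05 (8.70% and 7.97% over all genes). Mrps34 had 191, 182, 178 and 192 CPM in the WT hearts and 239.9, 240.5, 261 and 263 CPM in the Rpl3l-/- hearts, a difference of 0.43 beside -0.06 in mRNA, and Mrpl4 (0.27) and Mrpl12 (0.26) were higher with the groups apart. With the GC trend removed, the differences of these 3 genes were 0.14, 0.08 and 0.07. For mitochondrial ribosomal proteins, the median was -0.03 with the GC trend removed (1 higher and 2 lower), 0.12 without the airway libraries (6 higher and 0 lower) and -0.03 to 0.08 with single replicates left out.

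Aminoacyl-tRNA synthetases, which charge tRNAs, had a median of -0.01 over 20 genes, with 2 higher and 1 lower at an unadjusted p under 0.05 (8.70% and 7.97% over all genes). The cytosolic enzymes for Glu and Pro (Eprs, -0.04), Ala (Aars, -0.07) and Ile (Iars, -0.04) overlapped between the groups. The mitochondrial enzymes Rars2 for Arg (-0.54) and Aars2 for Ala (0.26) had groups apart in opposite directions. For the synthetases, the median was -0.03 with the GC trend removed (0 higher and 1 lower), 0.03 without the airway libraries (0 higher and 1 lower) and -0.04 to 0.02 with single replicates left out.

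Factors that sense collided ribosomes or rescue stalled ones gave a median of -0.02 over 30 genes, with 3 higher and 4 lower at an unadjusted p under 0.05 (8.70% and 7.97% over all genes). Map3k20, which encodes the collision-sensing kinase ZAK, had 436, 493, 488 and 420.2 CPM in the WT hearts and 394, 368, 444 and 414 CPM in the Rpl3l-/- hearts (-0.18). Gcn1l1, a large ribosome-bound activator of GCN2, had 262, 220.5, 222 and 206 CPM in the WT hearts and 292, 299.9, 299.5 and 232 CPM in the Rpl3l-/- hearts (0.30), and Edf1, which binds collided ribosomes, was 0.11. All 3 overlapped between the groups. The rescue factor Hbs1l (-0.34) and the ligase subunit Cul2 (-0.39) were lower with the groups apart, and with the GC trend removed their differences were -0.21 and -0.06. For collision and rescue factors, the median was -0.02 with the GC trend removed (0 higher and 0 lower), -0.04 without the airway libraries (2 higher and 1 lower) and -0.04 to 0.03 with single replicates left out. Targets of the integrated stress response, which is set off by phosphorylation of eIF2, had a median of 0.07 in footprints and 0.13 in mRNA over 9 tested of 44 listed genes. Cebpb was the 1 gene of them at an unadjusted p under 0.05, where 8.70% were higher and 7.97% lower over all genes. Herpud1 (0.19) and Vldlr (-0.14) overlapped. For stress response targets, the median was 0.04 with the GC trend removed (1 higher and 0 lower), 0.04 without the airway libraries (1 higher and 0 lower) and -0.00 to 0.12 with single replicates left out.

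Proteasome genes had the lowest median among the classes in the plot of classes. Of 29 tested, 7 were higher and 22 lower, 3 higher and 10 lower at an unadjusted p under 0.05 (8.70% and 7.97% over all genes), and the groups were apart upward in 2 and downward in 6 (5.31% and 4.98%). The median was -0.11 in footprints, 0.03 in mRNA and -0.15 in footprints per mRNA. Psma3, an alpha subunit of the core, had 357, 379.6, 419 and 418 CPM in the WT hearts and 328, 291, 305 and 339 CPM in the Rpl3l-/- hearts, a difference of -0.32 beside 0.06 in mRNA. Psmd14, the deubiquitinase of the lid, had 189.9, 191, 224 and 221 CPM in the WT hearts and 151, 157, 175 and 156 CPM in the Rpl3l-/- hearts, a difference of -0.37 beside 0.17. The activator gene Psme3 (-0.40) and the immunoproteasome subunit Psmb8 (-0.44) were lower as well, and the core subunit Psmb6 (0.26), the ubiquitin receptor Adrm1 (0.32) and the assembly chaperone Psmd9 (0.40) were higher. The abundant members Psme4 (-0.11), Psmd2 (-0.11) and Psmc3 (0.02) overlapped. The median GC share of the class was 49.8%, and with the GC trend removed its median was -0.01 with 0 higher and 1 lower. Without the libraries with airway transcripts it was -0.05, with 3 higher and 2 lower.

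Chaperones had a median of 0.03 over 40 genes, with 5 higher and 5 lower at an unadjusted p under 0.05 (8.70% and 7.97% over all genes). Hspb1, a small heat shock protein, had 1468, 1294, 1200 and 1658 CPM in the WT hearts and 1823, 1777, 2086 and 1962 CPM in the Rpl3l-/- hearts (0.44, mRNA 0.15), and Hspe1, the mitochondrial chaperonin partner, had 508, 461, 456 and 548 CPM in the WT hearts and 291, 317, 401 and 371 CPM in the Rpl3l-/- hearts (-0.52, mRNA 0.01). Both had groups apart, in opposite directions. Cryab (0.13), Hspa8 (0.11) and the endoplasmic reticulum chaperone Hspa5 (-0.13) overlapped. For chaperones, the median was 0.01 with the GC trend removed (1 higher and 1 lower), 0.02 without the airway libraries (7 higher and 1 lower) and -0.02 to 0.06 with single replicates left out.

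Genes of the contractile apparatus and the Z-disc had total footprints close to those of WT. Of 65 listed, 32 were in the table and 30 tested, with 18 higher and 12 lower, 3 and 2 at an unadjusted p under 0.05 (8.70% and 7.97% over all genes), and 0 past the threshold. The median was 0.05 in footprints and 0.00 in mRNA, and the range over genes was -0.35 to 0.36. Myl2, the ventricular regulatory light chain, had 9403, 10862, 10542 and 11165 CPM in the WT hearts and 10274, 9291, 11982 and 12744 CPM in the Rpl3l-/- hearts (0.08, 95% interval -0.15 to 0.30). Myl3, the ventricular essential light chain, had 9642, 11301, 11441 and 12054 CPM in the WT hearts and 11256, 10420, 13376 and 14277 CPM in the Rpl3l-/- hearts (0.15, 95% interval -0.09 to 0.39). Mybpc3, a thick filament protein, had 11017, 11410, 8833 and 10146 CPM in the WT hearts and 10918, 12936, 13526 and 11934 CPM in the Rpl3l-/- hearts (0.25, 95% interval 0.04 to 0.47). The groups of all 3 overlapped. Bag3, a cochaperone of the Z-disc, had 889, 882, 845 and 899.9 CPM in the WT hearts and 1269, 1046, 1020 and 1174 CPM in the Rpl3l-/- hearts (0.36) and Capza2, which caps actin filaments, 435, 443, 480.1 and 473 CPM in the WT hearts and 389.7, 357, 415 and 353 CPM in the Rpl3l-/- hearts (-0.27), both with groups apart. For contractile genes, the median was -0.01 with the GC trend removed (0 higher and 0 lower), 0.02 without the airway libraries (7 higher and 0 lower) and 0.01 to 0.06 with single replicates left out. Their library medians were -0.01, -0.04, 0.03 and 0.14 in Rpl3l-/- replicates 1 to 4 and -0.07 to 0.03 in WT hearts. The fit without airway libraries keeps Rpl3l-/- replicates 3 and 4.

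Calcium handling genes had a median of -0.03 over 23 genes, with 1 higher and 2 lower at an unadjusted p under 0.05 (8.70% and 7.97% over all genes). Pln, the inhibitor of the calcium pump, had 2375, 2841, 3181 and 2989 CPM in the WT hearts and 2598, 2598, 3406 and 3320 CPM in the Rpl3l-/- hearts (0.07, 95% interval -0.19 to 0.32). The calcium buffers Casq2 (-0.10) and Hrc (-0.17) overlapped between the groups. Dmpk, the kinase whose repeat causes myotonic dystrophy, had 367, 341, 365 and 332 CPM in the WT hearts and 446, 440.1, 479 and 466 CPM in the Rpl3l-/- hearts (0.38, mRNA 0.01). Fkbp1a, which binds the ryanodine receptor, was -0.19. Both had groups apart, and with the GC trend removed Dmpk was 0.15. For calcium handling genes, the median was -0.00 with the GC trend removed (2 higher and 1 lower), -0.02 without the airway libraries (1 higher and 0 lower) and -0.08 to -0.00 with single replicates left out.

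Membrane ion channels had a median of 0.11 in footprints and -0.06 in mRNA over 19 and 26 genes, with 5 higher and 0 lower at an unadjusted p under 0.05 (8.70% and 7.97% over all genes). Kcnk3, a background potassium channel, had 202, 182, 147 and 199 CPM in the WT hearts and 232, 249.8, 285 and 284 CPM in the Rpl3l-/- hearts (0.52, mRNA -0.13) with the groups apart, and the pacemaker channel Hcn4 (0.69) was higher with overlap. The connexin gene Gja1 (-0.08), Cacna2d1 (-0.16) and Cacnb2 (-0.03) overlapped. For ion channels, the median was 0.06 with the GC trend removed (1 higher and 0 lower), 0.22 without the airway libraries (2 higher and 0 lower) and -0.03 to 0.12 with single replicates left out. The sign turned without WT replicate 1, and the median was -0.06 among genes with a mean of at least 50 footprints.

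Genes of energy metabolism had medians of 0.04 to 0.12. These were 0.07 for respiratory complex I (12 tested of 37 listed genes), 0.10 for complexes II to IV (10 of 31) and 0.11 for ATP synthase (4 of 21). The others were 0.04 for fatty acid oxidation (32 of 63), 0.05 for the tricarboxylic acid cycle (17 of 35), 0.09 for glycolysis (18 of 38) and 0.12 for creatine and adenylate transfer (10 of 19). Of all these genes, 0 passed the threshold. At an unadjusted p under 0.05 (8.70% higher and 7.97% lower over all genes), 1 gene of complex I was higher and 0 lower. The counts were 0 and 0 in complexes II to IV, 1 and 0 in ATP synthase and 2 and 0 in fatty acid oxidation. They were 1 and 1 in the tricarboxylic acid cycle, 2 and 1 in glycolysis and 2 and 2 in creatine and adenylate transfer. Atp5a1 and Atp5b, which form the catalytic head of ATP synthase, had differences of 0.05 (95% interval -0.14 to 0.25) and 0.17 (-0.04 to 0.37). Pnpla2, the lipase that opens triglyceride stores, had 974, 1010, 1051 and 1030 CPM in the WT hearts and 1288, 1382, 1348 and 1239 CPM in the Rpl3l-/- hearts (0.37), and the uncoupling protein gene Ucp2 had 17.4, 13.3, 30.8 and 17.5 CPM in the WT hearts and 51.8, 36.2, 31.1 and 33.9 CPM in the Rpl3l-/- hearts (0.97), both with groups apart. Ckm, muscle creatine kinase, was 0.26 and Mdh2, malate dehydrogenase, 0.24, also with groups apart. Fatty acid oxidation had 2 genes apart upward and 0 downward, and the tricarboxylic acid cycle 1 and 0. Glycolysis had 2 and 1, and creatine and adenylate transfer 1 and 2. The respiratory complexes and ATP synthase had 0 either way (5.31% upward and 4.98% downward over all genes). Lpl (-0.08), Fabp3 (0.01), Uqcrc1 (0.17) and Ndufs7 (0.21) overlapped. With the GC trend removed the medians of these classes were -0.04 for complex I, 0.04 for complexes II to IV, 0.13 for ATP synthase, 0.03 for fatty acid oxidation, 0.05 for the tricarboxylic acid cycle, 0.06 for glycolysis and 0.08 for creatine and adenylate transfer, and Ckm was 0.09. Leaving out single replicates gave 0.00 to 0.14 for complex I, 0.05 to 0.16 for complexes II to IV, -0.01 to 0.08 for fatty acid oxidation, 0.02 to 0.08 for the tricarboxylic acid cycle, 0.05 to 0.10 for glycolysis and 0.09 to 0.16 for creatine and adenylate transfer. Without the airway libraries the medians were 0.25 for complex I, 0.29 for complexes II to IV, 0.27 for ATP synthase, 0.14 for fatty acid oxidation, 0.13 for the tricarboxylic acid cycle, 0.10 for glycolysis and 0.20 for creatine and adenylate transfer, in the pair of Rpl3l-/- hearts whose cardiomyocyte markers were also highest (75660 and 75920 CPM, against 57250 to 64810 CPM in the other 6).

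Genes of hypertrophy and the failing heart gave a median of 0.11 in footprints and -0.02 in mRNA over 19 genes, with 5 higher and 1 lower at an unadjusted p under 0.05 (8.70% and 7.97% over all genes). The natriuretic peptides Nppa, with 5407, 5923, 6060 and 5889 CPM in the WT hearts and 6099, 6038, 5218 and 7352 CPM in the Rpl3l-/- hearts (0.09), and Nppb (0.02) overlapped. Ccn2, a matricellular growth factor, had 496, 461, 443 and 484 CPM in the WT hearts and 898, 763, 504 and 723 CPM in the Rpl3l-/- hearts (0.62, mRNA 0.41), and Cited4, a transcriptional coactivator of exercised heart, had 78.2, 69.3, 51.3 and 92.0 CPM in the WT hearts and 118, 101, 117 and 129 CPM in the Rpl3l-/- hearts (0.68, mRNA 0.16). For hypertrophy genes, the median was 0.04 with the GC trend removed (1 higher and 0 lower), 0.06 without the airway libraries (2 higher and 1 lower) and 0.05 to 0.13 with single replicates left out.

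Extracellular matrix and adhesion genes had a median of 0.03 over 41 genes, with 3 higher and 2 lower at an unadjusted p under 0.05 (8.70% and 7.97% over all genes). Itgb1, the integrin beta-1 chain, had 1353, 1366, 1523 and 1334 CPM in the WT hearts and 1086, 1062, 1070 and 1039 CPM in the Rpl3l-/- hearts (-0.39, mRNA -0.07), and the small proteoglycan genes Ogn (-0.27) and Dcn (-0.15) also had groups apart. Hspg2 (0.26) and Lamb2 (0.12) of basement membranes overlapped. For matrix and adhesion genes, the median was 0.00 with the GC trend removed (0 higher and 0 lower), -0.10 without the airway libraries (0 higher and 6 lower) and 0.01 to 0.10 with single replicates left out.

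Circadian clock genes had a median of 0.21 in footprints and 0.04 in mRNA over 9 and 10 genes, with 2 higher and 1 lower at an unadjusted p under 0.05 (8.70% and 7.97% over all genes). Per1 had 78.9, 39.1, 48.5 and 27.9 CPM in the WT hearts and 206, 73.4, 119 and 115 CPM in the Rpl3l-/- hearts, and Klf15, a clock-driven metabolic factor, had 78.9, 90.7, 92.3 and 81.5 CPM in the WT hearts and 109, 109, 119 and 130.0 CPM in the Rpl3l-/- hearts (0.44). Arntl, which encodes the clock activator BMAL1, was lower by as much in mRNA (-0.70) as in footprints (-0.68). Dbp (0.44), Bhlhe40 (0.29) and Usp2 (0.21) overlapped. For clock genes, the median was 0.08 with the GC trend removed (1 higher and 0 lower), 0.14 without the airway libraries (2 higher and 0 lower) and 0.14 to 0.35 with single replicates left out. Per1 and Klf15 are also among the immediate-early genes, as Cebpb is among the targets of the integrated stress response.

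A pair of lists that the study chose on these same hearts is no independent evidence of a direction. Of its genes with delayed Pro or Ala codons, 24 of 45 were tested, 18 higher and 6 lower, with a median of 0.13 in footprints and 0.02 in mRNA and 5 higher and 1 lower at an unadjusted p under 0.05 (8.70% and 7.97% over all genes). Their median GC share was 56.0%, and the median was 0.02 with the GC trend removed (0 higher and 0 lower) and 0.20 without the airway libraries (10 higher and 0 lower). Library medians of this list were -0.04, -0.004, 0.22 and 0.28 in Rpl3l-/- replicates 1 to 4 and -0.09 to 0.05 in WT hearts. The fit without airway libraries keeps Rpl3l-/- replicates 3 and 4, in which cardiomyocyte markers were also highest. Of genes with disome peaks, 102 of 214 were tested, 68 higher and 34 lower, with a median of 0.07 in footprints and 0.03 in mRNA. At an unadjusted p under 0.05, 16 were higher and 4 lower (8.70% and 7.97% over all genes). The median was 0.04 with the trend removed (5 higher and 2 lower, 3.25% and 3.40% over all genes). It was 0.17 without the airway libraries (33 higher and 2 lower, 5.75% and 4.51% over all genes). Library medians of these genes were -0.01, 0.00, 0.15 and 0.15 in Rpl3l-/- replicates 1 to 4 and -0.08 to 0.05 in WT hearts. The muscle repair gene Trim72 (0.38) and the phosphatase subunit Ppp1cb (-0.42) of the second list had groups apart in opposite directions, and Tnnt2, cardiac troponin T on the first list, overlapped (0.04, 95% interval -0.18 to 0.27).

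**Figure D5:**
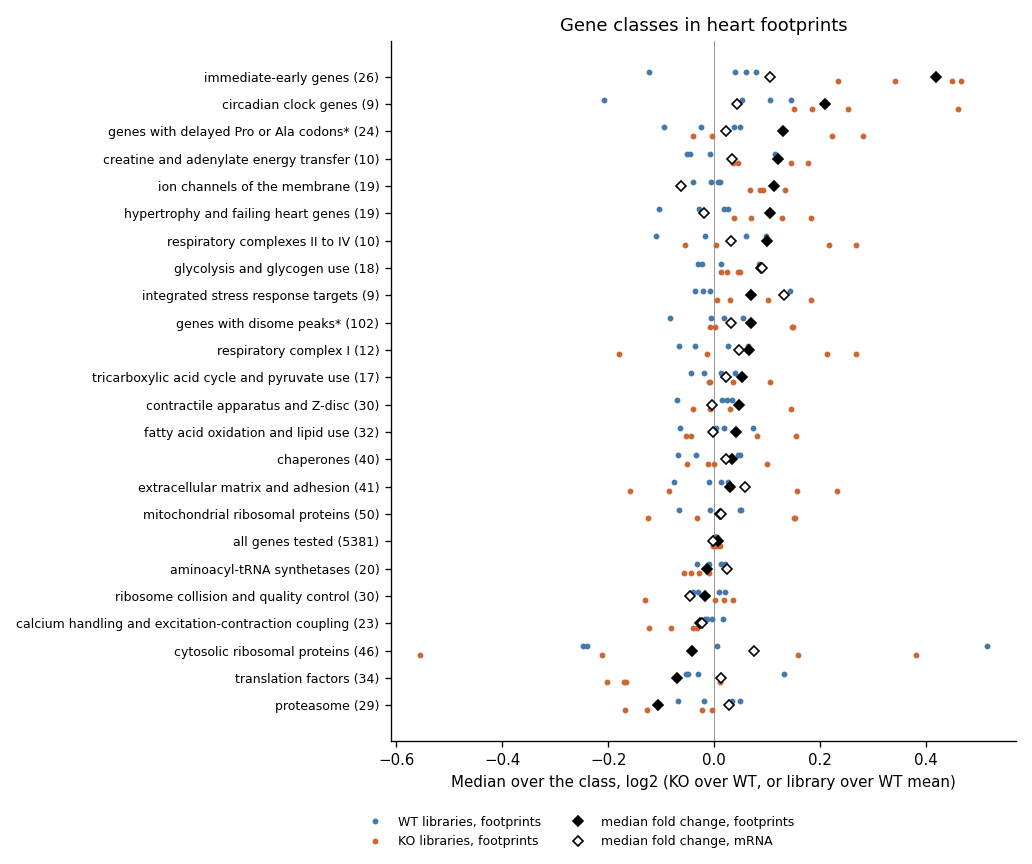
Median over each gene class (number of genes tested in parentheses) of the footprint log2 fold change (filled diamonds) and the mRNA log2 fold change (open diamonds), Rpl3l-/- over WT, with the class median of each WT (blue) and Rpl3l-/- (orange) footprint library relative to the WT mean. Immediate-early genes lie highest at 0.42 and proteasome genes lowest at -0.11, and the libraries of the cytosolic ribosomal proteins are spread over -0.56 to 0.52. Asterisks mark lists chosen by the study on these hearts.

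Markers of the cell types of the heart were present in both genotypes. Of 9 tested cardiomyocyte markers 8 were higher in footprints (median 0.08), of 14 fibroblast markers 8 (0.04), of 11 endothelial markers 6 (0.00), of 10 atrial markers 3 (-0.05) and of 8 immune markers 2 (-0.12). Smooth muscle and pericyte markers had a median of 0.16 and a summed level of 5355 to 5981 CPM in WT and 6033 to 6534 CPM in Rpl3l-/- footprints, without overlap, while their RNA-seq sums overlapped (4575 to 4948 and 4234 to 4967 CPM). Of 10 skeletal muscle markers 9 were higher in footprints, with a median of 0.26 against -0.35 over the 8 tested in mRNA, and the troponins Tnnt3 (1.46 in footprints, -0.41 in mRNA) and Tnni2 (0.91 and -0.26) had opposite signs in the assays. Erythroid markers had medians of 0.38 and 0.39. Without the airway libraries the footprint medians were 0.31 for cardiomyocyte, -0.12 for fibroblast, -0.16 for endothelial, -0.21 for immune, -0.02 for smooth muscle, 0.55 for skeletal muscle and -1.20 for fat markers. Thymus and lymphocyte markers summed to at most 16 CPM in any footprint library, and mitochondrially encoded genes are not analysed here.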

How the data were processed

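Ribo-seq and RNA-seq of WT and Rpl3l-/- hearts (4 libraries each, 1 mouse per library) were taken from raw read counts on each transcript, deposited by the authors without normalization. For Ribo-seq the methods of the study name trimming with cutadapt, quality filtering with the FASTX-Toolkit, removal of rRNA reads and alignment by STAR against GRCm38.p6 transcripts and the mm10 genome, with multiple matches kept, and removal of duplicates with UMI-tools. The submitters' processing notes also name featureCounts, and versions are not given in the sources used here. Reads with several matches can be shared among paralogs and processed copies.

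The table held 47754 lines for 23877 transcripts, each on 2 identical lines. By identifier, 23662 transcripts matched GENCODE M21, which gave gene names, coordinates and coding sequences, and 215 without a match were left out. All matches were on the plus strand. A further 34 columns belong to other samples and entered no comparison, and the table of m6A-seq peaks was not used. Base and codon composition was computed from coding sequences in place of the RefSeq proteins that had been planned.

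For footprints and for mRNA, genes with a mean count of at least 10 were tested with edgeR 4.0.16 (TMM, glmQLFit and glmQLFTest, genotype as the only term, two-sided) in R 4.3.3. Footprints per mRNA were tested as the interaction of genotype and assay, with no term for the heart that libraries of both assays may share. Benjamini-Hochberg adjustment ran over all genes tested, with a threshold of 0.05. DESeq2 1.42.0 was an alternative. Log2 CPM used a prior count of 2, and the coding GC trend was removed per library with a natural spline of 5 degrees of freedom. Other steps used Python 3.11.15, pandas 2.3.3 and scipy 1.17.1. Intervals cover 95%. On simulated counts the footprint test recovered 96.3% of 189 genes changed by 1.5 on the log2 scale.

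The libraries, members and gene lists were chosen with earlier results of these data known. Genes named are Rpl3l, the 12 with the smallest p-values in footprints, and from each class the 3 with the highest WT footprint level and the 2 with the smallest p-value. The remaining members named from a class were chosen after their values were seen. Replicate libraries of a genotype and assay differed by more than sampling noise (chi-square per degree of freedom 2.31 to 39.3), and p-values measure the spread between these hearts. Counts per library limit precision, and intervals cover no error shared by a group of libraries.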

Additional observations from a re-analysis of the deposited data

Results flagged for a closer look

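In 136 groups of 4 libraries, the value of 1 library lay far from the other 3 in 6 groups, by Dixon's criterion at 95%. Chance alone gives about 1 in 20 such groups. Cish footprints were 244.1 CPM in WT replicate 1, beside a median of 140.9 CPM in the other 3 WT hearts. In the same library the median log2 deviation from the WT mean was 0.131 for translation factors (median of the others -0.05) and 0.144 for integrated stress response targets (-0.02). In Rpl3l-/- footprints, the deviation of translation factors was 0.0109 in replicate 3, beside a median of -0.17 in the others. In Rpl3l-/- RNA-seq, replicate 2 had 0.446 for cytosolic ribosomal proteins (others -0.06) and 0.438 for respiratory complex I (others -0.06).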

How the results depend on the processing

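Of the 6 genes past the threshold in footprints, the sets by DESeq2 and with a mean count of at least 50 did not hold all. DESeq2 gave no adjusted p for Lmtk3, Ift46 and Catspere2, with log2 fold changes of -1.77, 0.92 and -1.55. Lmtk3 and Catspere2 were not tested with a mean count of at least 50. The count of 6 genes past the threshold in footprints moved with the fit. It was 22 with a mean count of at least 50 (13 higher, 9 lower), 17 with library totals in place of TMM (4 higher, 13 lower, against 3 and 3), 79 with DESeq2 (52 and 27), 86 over all transcripts (54 and 32), 3 with the coding GC trend removed, 1 without the libraries with airway transcripts, and 2 to 10 when single replicates were left out. Without WT replicate 2 or 4 it was 2, without Rpl3l-/- replicate 1 it was 3, and without WT replicate 1 it was 10. With no filter beyond 10 counts in total, and with the transcript chosen by RNA-seq, it was 6. The mRNA count of 1 was 2 with DESeq2, 2 over all transcripts and 3 (Cyp2e1, Nr4a1 and Rpl3l) without the libraries with airway transcripts. The count of 0 for footprints per mRNA held in all of these fits. The cause of these shifts was not tested.

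With library totals, the medians of the lowest and highest quintile were -0.27 and 0.18 by coding GC, -0.18 and 0.12 by Pro and Ala codons, and 0.12 and -0.16 by Lys and Asn codons. With the coding GC trend removed they were -0.0044 and 0.0033, -0.021 and 0.018, and 0.0023 and -0.022, by construction for GC, and the class medians were -0.0095 for the proteasome and 0.15 for immediate-early genes. Leaving out single replicates moved the median of translation factors over -0.165 to -0.045 (without Rpl3l-/- replicates 4 and 2), of the proteasome over -0.14 to -0.06 and of immediate-early genes over 0.35 to 0.47. The median of ion channels changed sign to -0.058 with a mean count of at least 50 and to -0.029 without WT replicate 1. Over the fits with 1 replicate left out, 312 values kept their side of the threshold, stayed within 1.5 times as counts, or moved by less than the replicate spread. A further 16 moved beyond these bounds, 1 reversed, 20 no longer passed the threshold and 1 newly passed it. Of 29 class and quintile medians, 8 changed sign with a replicate left out, those of cytosolic and mitochondrial ribosomal proteins, synthetases, collision factors, stress response targets, fatty acid oxidation, chaperones and ion channels. The sign also changed for 3 with the GC trend removed, 2 without the airway libraries, 4 with library totals and 2 with a mean count of at least 50.

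WT and Rpl3l-/- hearts share replicate numbers in the labels, but libraries of the same number did not deviate together throughout. The r was -0.29, 0.43, 0.32 and -0.13 in Ribo-seq, where replicates 2 and 3 were highest with their own number. In RNA-seq it was -0.16, -0.14, -0.29 and -0.26, so the numbers were not taken as pairs. With the replicate number as a block, the pairing gave 9 genes in footprints, with Cish, Klf2, Per1 and Dlgap3 added and Ift46 lost, and 1 in mRNA and 0 in footprints per mRNA. Removal of the GC trend and the fits without airway libraries were chosen after the data were seen. At the depth of these libraries, changes near 0.5 on the log2 scale were rarely past the threshold in simulation (1.53%).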

Other observations

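WT Ribo-seq and RNA-seq libraries of the same replicate number deviated together (r = 0.22, 0.32, 0.28 and 0.20 across genes, each highest with its own number). In Rpl3l-/- hearts the values were 0.54, -0.54, -0.58 and 0.45 for the same numbers, while Ribo-seq replicate 2 had 0.63 with RNA-seq replicate 3 and Ribo-seq replicate 3 had 0.62 with RNA-seq replicate 2. The airway marker sums followed that order as well (8354 CPM in Ribo-seq replicate 2 and 4604 CPM in RNA-seq replicate 3). The fits of footprints per mRNA with the replicate block, or with a heart left out, took the numbers across assays as labelled, and an exchange of these numbers was not fitted. The other fits do not use them.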
